A study of Homo sapiens with 16 samples.

Results

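Within the first of the study's batches, the PRO-seq libraries of LNCaP cells differed along an axis that is neither radiation nor, as labelled, t1 against t2. The axis set the mock t1 and the irradiated t2 libraries (here set A) against the mock t2 and the irradiated t1 libraries (set B), 4 against 4, so that it involved 8 of the 16 libraries of the series. The sets were chosen from these same gene counts, with radiation as a covariate of the fit. Every difference between set A and set B is therefore given as a description of the libraries and carries no test. LNCaP is an established androgen-sensitive human prostate cancer line. Batch 1 held mock-treated cells and cells given 6 Gy of ionizing radiation, each with replicates 1 and 2 and with libraries t1 and t2 under each number, written here as mock 1t1 or, for irradiated cells, IR 1t1. What t1 and t2 stand for is not given in the sources used here, and the t1 and t2 library of a replicate always fell into different sets. An exchange of the labels t1 and t2 within 1 treatment would turn the axis into t1 against t2, and these cases cannot be told apart from the labels. Batch 2 held replicates 3 and 4 of cells given DMSO vehicle, vehicle with 6 Gy, 10 µM enzalutamide (an antiandrogen drug), or enzalutamide with 6 Gy. In the treatment scheme of the labels, exposure to vehicle or drug lasted 90 min, radiation came at 30 min, and cells were collected 60 min later. That scheme does not describe mock cells separately.

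PRO-seq labels RNA that engaged polymerases extend in isolated nuclei, so its reads report transcription in progress rather than the amount of finished RNA. Pol II pauses just downstream of most promoters before it is released into the gene body, and a short gene therefore collects a larger part of its reads close to its start than a long gene does. Pol III makes 5S rRNA, tRNAs, vault RNAs, 7SL, 7SK and U6-type snRNAs, Pol II makes mRNAs, most lncRNAs and the other spliceosomal snRNAs, and a separate polymerase reads the mitochondrial genome from both strands. Small RNA loci sit within or next to other transcription units, and counts at a miRNA hairpin measure polymerase at that place and not the mature miRNA. Whether counting used strand is not given in the sources used here, so overlapping and antisense genes, near-identical copies and pseudogenes are uncertain throughout.

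A few counted miRNA loci show what kind of short feature followed the axis. Shown are the 3 loci farthest toward set B when loci averaging fewer than 50 counts are set aside, together with the only locus counted for set A. The mature sequences are from RefSeq on GRCh38.p14, 5′ to 3′, with the seed (bases 2 to 8) in capitals. MIR4521 lies at chr17:8186948-8186969 on the plus strand, MIR4519 at chr16:30875301-30875318 on the minus strand, the arms of MIR3124 at chr1:248826383-248826403 and chr1:248826418-248826439 on the plus strand, and MIR3185 at chr17:48724446-48724468 on the minus strand.
hsa-miR-4521: gCUAAGGAaguccugugcucag
hsa-miR-4519: cAGCAGUGcgcagggcug
hsa-miR-3124-5p: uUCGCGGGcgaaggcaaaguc
hsa-miR-3124-3p: aCUUUCCUcacucccgugaagu
hsa-miR-3185: aGAAGAAGgcggucggucugcgg
No seed was shared. The 25 counted miRNA loci with a mature sequence in the table (24 for set B and 1 for set A) gave 27 mature sequences with 27 distinct seeds.

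Batch 1 libraries held 3438642 to 9363458 gene counts (median 5313540) and batch 2 libraries 10494563 to 19905824. CDKN1A, the p53 target that checks the radiation labels, was at 37.9 to 57.7 CPM in the 4 mock libraries and at 539 to 592 CPM in the 4 irradiated ones. CPM are gene counts scaled to a common library size, corrected by the TMM method. Luminal prostate markers were present (13 of 14 passed the filter and none was at 0), and their summed level was 3970 to 4410 CPM in set A and 3080 to 3320 CPM in set B. Summed neuroendocrine markers were at 21 to 29.3 CPM in set A and 30.7 to 40.3 CPM in set B. Of these 8 markers only 3 passed the filter, 5 were at 0 in some libraries, and CHGA was at 0 in all 8 libraries. Only 1 of the 3, SYP, was higher in both libraries of set B than in both of set A within each treatment. Summed basal, fibroblast and blood markers overlapped between the sets. The part of these markers in the axis was not tested. In bulk libraries, fewer cells of a type and less RNA per cell cannot be told apart.

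The axis was the largest component of variation in batch 1. The first principal component of log2 CPM took 47.3% of the variance, with set A at 9.1 (mock 1t1), 39.1 (mock 2t1), 39.6 (IR 1t2) and 50.1 (IR 2t2), and set B between -46.1 and -24.2. The second took 18.1% and separated mock from irradiated libraries. Mock 1t1 stood apart from the rest of set A and lay between the sets. Within a treatment, libraries of a set resembled each other more than the t1 and t2 library of a replicate did: a chi-square of their counts over genes, divided by its degrees of freedom, was 3.28 to 7.14 for the 4 pairs of 1 treatment and 1 set, and 7.65 to 34.7 for the 4 pairs of 1 treatment and 1 replicate number. Across treatments this did not hold for mock 1t1, which was at 8.66 and 16.1 with the irradiated libraries of its own set and at 7.65 with mock 1t2. The chi-square was taken on unscaled counts, so for the same relative difference it is larger in deeper libraries. The pair at 34.7 (IR 2t1 and IR 2t2) had 7488015 and 9363458 counts. The pair at 3.28 (mock 1t2 and mock 2t2) had 4584347 and 3583636 counts. No pair differed as little as sampling noise alone allows, so no library was counted as a repeat of another.

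**Figure D1:**
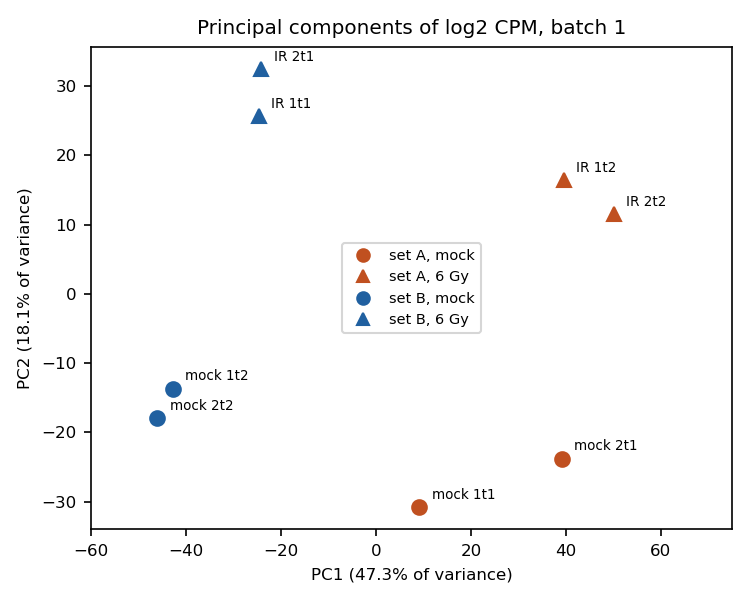
First (x) and second (y) principal component of TMM-scaled log2 CPM in the 8 libraries of batch 1, with circles for mock, triangles for 6 Gy and colours for the sets. Set A lies to the right, from 9.1 for mock 1t1 to 50.1 for IR 2t2, and set B to the left.

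A gene was counted as part of the axis when the fitted log2 difference (set A minus set B) was at least 1, a 2-fold difference, and when both libraries of 1 set lay above both of the other, in mock and in irradiated cells alike. Of 22580 genes tested, 288 (1.28%) were counted higher in set A and 468 (2.07%) higher in set B. The order alone held for 9937 genes (44%), of which 5205 were higher in set A. Without mock 1t1 the counts were 540 and 758, and without IR 1t2 they were 480 and 558. With a library left out the order compares fewer libraries and is easier to meet. Membership also changed: of the 288 set A genes 212 were still counted without mock 2t1. Of the 468 set B genes 338 were still counted without IR 2t2. These were the fewest kept with a single library left out. With libraries scaled by their total counts, 180 genes were counted for set A and 698 for set B, so that the share of set A was 20.5% in place of 38.1%. Just inside the threshold lay ENSG00000279759 at 1.0006 and PDHB at -1.0002, and just outside it CDHR18P at 0.9999 and ENSG00000259522 at -0.9999 (all log2).

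The genes with the largest differences were of different kinds in the 2 directions. Among the 12 largest toward set B with a symbol and an average of 50 counts or more were 5 pseudogenes (RNA5SP298, RNA5SP370, RNA5SP145, RNA5SP149 and RPL12P19), 3 miRNA loci, 2 5S rRNA genes and 2 protein-coding genes. Toward set A, by the same rule, 5 of the 12 were lncRNAs, 3 were mitochondrial tRNAs, 3 were protein-coding genes and 1 was a pseudogene.

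**Figure D2:**
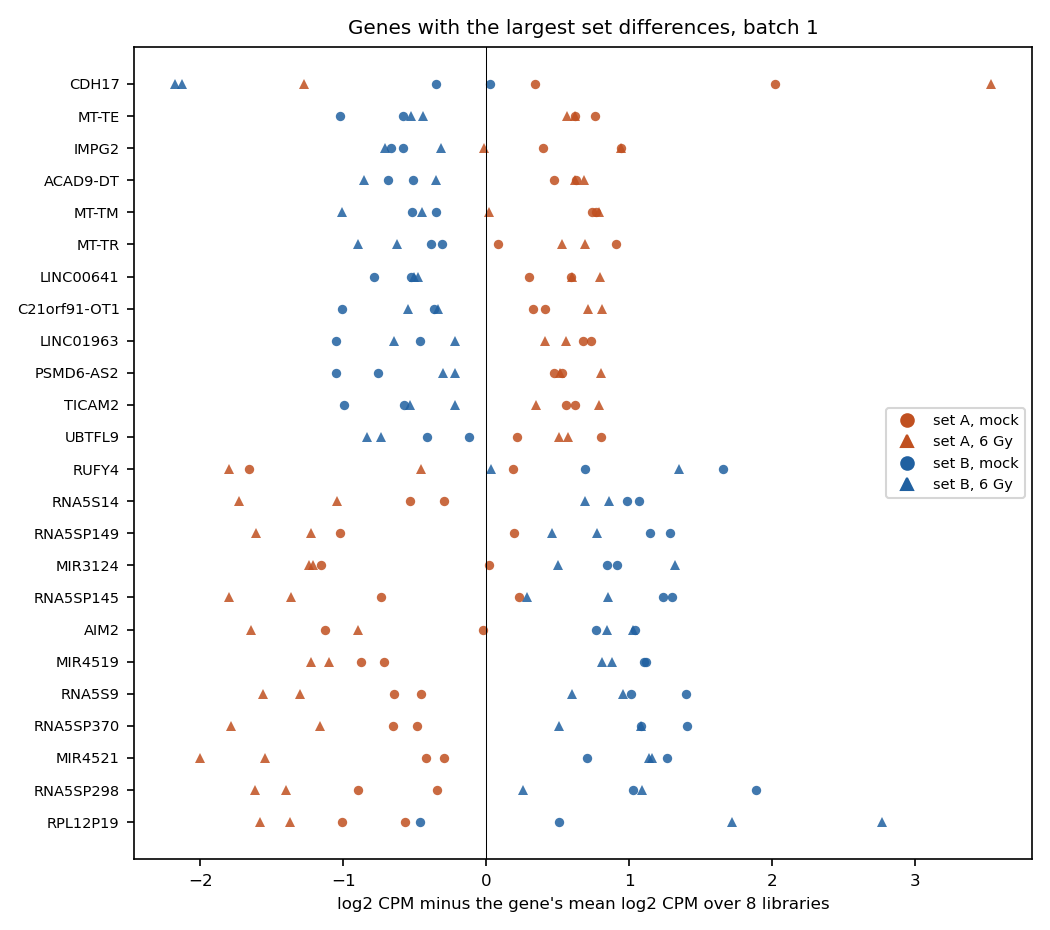
Level of the 24 genes with the largest counted differences, as log2 CPM minus the mean over the 8 libraries (x), one row per gene, with a point per library. The upper 12 genes are higher in set A and the lower 12 in set B; CDH17 spreads widest within set A, from 8.79 to 246 CPM.

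All 17 5S rRNA genes, which supply the small RNA of the large ribosomal subunit and lie in a cluster on chromosome 1, were counted higher in set B. Their log2 differences were between -1.98 (RNA5S9) and -1.32 (RNA5S17), with a median of -1.56 against -0.03 over all genes tested. The copies are near-identical, so single genes are uncertain, and their sum is the safer value. Together they took 0.159% of the counts in mock 1t1, 0.112% in mock 2t1, 0.0755% in IR 1t2 and 0.06% in IR 2t2. In set B they took 0.335% in mock 1t2, 0.301% in mock 2t2, 0.314% in IR 1t1 and 0.246% in IR 2t1. The sets did not overlap, and the mean of set B was 2.94 times that of set A. Batch 2 libraries lay at 0.0722% to 0.136%, in the range of set A. Of 27 5S pseudogenes tested, 15 were counted for set B and none for set A, with a median of -1.28 (log2). RNA5SP370 was at 26.9, 23.9, 16.8 and 10.9 CPM in mock 1t1, mock 2t1, IR 1t2 and IR 2t2, and at 99.3, 79.4, 79.7 and 53.4 CPM in mock 1t2, mock 2t2, IR 1t1 and IR 2t1.

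Other Pol III genes differed among themselves. The 3 vault RNA genes tested, whose short RNAs belong to the vault ribonucleoprotein particle, were all counted for set B. VTRNA1-2 was at 22.3, 17.6, 14.7 and 15.5 CPM in mock 1t1, mock 2t1, IR 1t2 and IR 2t2. It was at 63.9, 88.3, 53.2 and 24.2 CPM in mock 1t2, mock 2t2, IR 1t1 and IR 2t1, a log2 difference of -1.64 (SE 0.218) without overlap. RNU6ATAC, the U6-type RNA of the minor spliceosome, was the other counted member of the 13 Pol III genes tested outside the 5S family, at a low mean of 16.1 counts. RPPH1, the RNA of RNase P, was higher in set B in both treatments at -0.55 (log2) and fell short of 2-fold. RN7SL1 and RN7SL2, the 7SL RNAs of the signal recognition particle, RMRP, the RNA of RNase MRP, and RN7SK, the regulator of P-TEFb, had differences between -0.08 and 0.12. RMRP was at 191, 166, 103 and 141 CPM in set A and at 46.6, 114, 223 and 216 CPM in set B, in the same order of libraries. In mock cells RMRP was higher in set A and in irradiated cells higher in set B, so that its 2 contrasts ran in opposite directions.

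The snRNA genes transcribed by Pol II leaned toward set B as a group. All 19 tested had negative differences, from -1.50 to -0.36 (median -0.72, log2); the order held for 9 (47.4%, against 21% of all genes), and 3 were counted. RNU4ATAC, of the minor spliceosome, was at 245, 108, 125 and 78.7 CPM in mock 1t1, mock 2t1, IR 1t2 and IR 2t2. It was at 315, 314, 368 and 528 CPM in mock 1t2, mock 2t2, IR 1t1 and IR 2t1. Every library of set B lay above every library of set A. RNU5B-1 (-1.14, SE 0.118) and RNU11 (-1.09, SE 0.133) were the other 2 counted members. Among 74 snoRNA genes, which guide rRNA modification and mostly lie in introns, 3 were counted for set B and 6 for set A. SNORD118, the U8 RNA, which has its own promoter, was at 66.2, 53.9, 66.5 and 50.7 CPM in set A and at 157, 148, 119 and 100 CPM in set B. The 6 counted for set A had means of 9.12 to 19.5 counts per library, and the median over all snoRNA genes was 0.37 (log2).

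Of 66 miRNA loci tested, 29 (43.9%) were counted for set B and 1 (MIR3185, with a mean of 9.12 counts) for set A, against 2.07% and 1.28% of all genes. The median difference was -0.98 (log2). MIR4519 was at 9.77, 8.71, 6.85 and 7.47 CPM in mock 1t1, mock 2t1, IR 1t2 and IR 2t2 and at 34.4, 34.7, 29.5 and 28.1 CPM in mock 1t2, mock 2t2, IR 1t1 and IR 2t1. MIR4521 was at 31.1, 28.5, 9.55 and 13.1 CPM in set A and at 62.2, 91.9, 84.3 and 85.4 CPM in set B, in the same order. For MIR4519, and for MIR4521 as well, the sets did not overlap. Most of these hairpins lie at the start of another gene: of 58 loci whose position could be compared with the RefSeq starts in the table, 41 lay within 1000 bp of one. Those 41 had a median of -1.01 with 20 counted for set B, and the 17 farther away had a median of -0.53 with 6 counted. The let-7 loci MIRLET7A3, MIRLET7B and MIRLET7C, which lie inside longer host transcripts, were at 0.07, 0.36 and 0.41 (log2).

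Protein-coding genes gave 191 of the 468 genes counted for set B and 33 of the 288 counted for set A (1.32% and 0.227% of 14506 tested). The largest toward set B with at least 50 counts were AIM2, a cytosolic DNA sensor, at -1.86 (SE 0.211), RUFY4 at -1.77 (SE 0.374) and CDKN2B, the CDK4 and CDK6 inhibitor p15, at -1.72 (SE 0.212). AIM2 was at 24.4, 11.3, 13.3 and 7.91 CPM in mock 1t1, mock 2t1, IR 1t2 and IR 2t2, and at 42.2, 50.9, 50.5 and 44.5 CPM in mock 1t2, mock 2t2, IR 1t1 and IR 2t1. Toward set A the largest were CDH17 (liver-intestine cadherin) at 3.10 (SE 0.828), IMPG2 at 1.20 (SE 0.216) and TICAM2, a Toll-like receptor adaptor, at 1.09 (SE 0.172). TICAM2 was at 14.3, 15, 16.8 and 12.4 CPM in set A and at 6.54, 4.88, 6.73 and 8.37 CPM in set B, in the same order, without overlap. CDH17 was at 26.9, 86.4, 246 and 8.79 CPM in set A and at 16.7, 21.7, 4.7 and 4.86 CPM in set B, so the sets overlapped, and without IR 1t2 its difference was 1.42.

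The promoters of the counted protein-coding genes differed in base composition between the directions. Over the 300 bases around the start (250 before and 50 after), the median GC content was 49.3% for the 27 of 33 set A genes with a promoter in the table, 66% for 156 of 191 set B genes and 65% for 11836 of 14506 protein-coding genes tested. The letters TATAAA, on either strand, stood in 25.9%, 11.5% and 6.16% of these promoters. The set A genes had fewer counts, with a median of 26.9 per library against 115 for set B and 193 for all protein-coding genes. Shown here are the 120 bases upstream of the start of the largest genes in each direction that the table holds, IMPG2 and TICAM2 for set A and AIM2, RUFY4 and CDKN2B for set B (RefSeq, GRCh38.p14, 5′ to 3′ on the gene's strand, CpG in capitals). They lie at chr3:101320576-101320695 (minus), chr5:115602480-115602599 (minus), chr1:159076767-159076886 (minus), chr2:218034814-218034933 (plus) and chr9:22009306-22009425 (minus).
IMPG2: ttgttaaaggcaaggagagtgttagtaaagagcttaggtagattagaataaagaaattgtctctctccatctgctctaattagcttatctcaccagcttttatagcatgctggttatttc
TICAM2: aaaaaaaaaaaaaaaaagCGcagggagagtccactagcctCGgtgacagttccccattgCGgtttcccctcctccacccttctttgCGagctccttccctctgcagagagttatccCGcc
AIM2: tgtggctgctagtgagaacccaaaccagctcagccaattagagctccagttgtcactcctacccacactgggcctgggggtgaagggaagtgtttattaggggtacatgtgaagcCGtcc
RUFY4: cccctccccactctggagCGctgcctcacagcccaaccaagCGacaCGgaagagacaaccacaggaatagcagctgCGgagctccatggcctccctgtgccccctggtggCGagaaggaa
CDKN2B: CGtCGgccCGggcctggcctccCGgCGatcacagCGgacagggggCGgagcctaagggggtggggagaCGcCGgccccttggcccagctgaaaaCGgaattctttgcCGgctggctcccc
These stretches held 0, 5, 1, 5 and 11 CpG. Across all protein-coding genes with a promoter in the table, the set difference had almost no relation to promoter GC content (Spearman's correlation -0.00887 over 11836 genes) but followed gene length (0.479) and, less closely, level (0.266). These are descriptions across genes, which are not independent and share the same 8 libraries.

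Gene length ordered the protein-coding genes along the axis. The median difference was -0.66 (log2) for 187 genes of 1 to 2 kb, -0.49 for 876 genes of 2 to 5 kb, -0.31 at 5 to 10 kb, -0.17 at 10 to 20 kb, 0.00 at 20 to 50 kb, 0.15 at 50 to 100 kb, 0.26 for 1874 genes of 100 to 200 kb and 0.21 above 200 kb. Among genes of 2 to 5 kb the order held for 499 toward set B and 44 toward set A, and among those of 100 to 200 kb for 121 and 912. From 1 to 20 kb and above 50 kb, each of the 4 within-replicate contrasts had the sign of the median. Mock replicate 1 gave the smallest contrast from 1 to 10 kb (-0.28 at 2 to 5 kb, against -0.56, -0.41 and -0.57 in the others). Below 1 kb, where the replication histones lie, mock replicate 1 gave 0.15 and the others -0.58, -0.33 and -0.63. Within promoters of 55 to 65% GC the medians still ran from -0.51 (up to 5 kb) to 0.27 (over 100 kb). Within those up to 45% GC the shortest genes were not the lowest. There the medians were -0.07 (up to 5 kb, 49 genes), -0.21 (5 to 20 kb), 0.04 (20 to 100 kb) and 0.12 (over 100 kb).

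**Figure D3:**
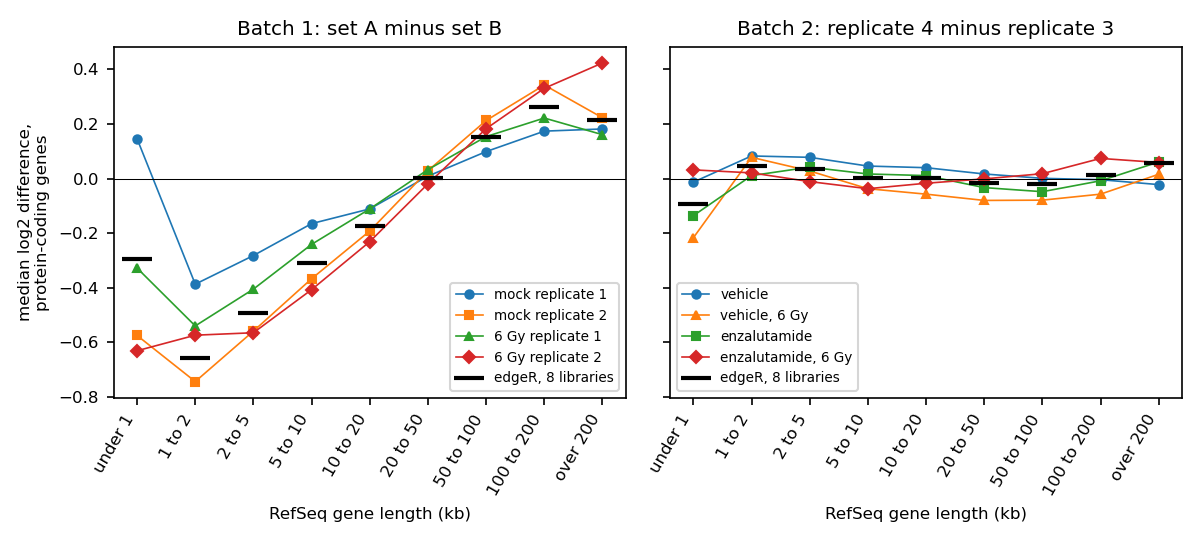
Median log2 difference of protein-coding genes (y) by RefSeq gene length (x). Lines are single replicates or groups and black bars the edgeR fit: set A minus set B in batch 1 (left) climbs from -0.66 at 1 to 2 kb to 0.26 at 100 to 200 kb, and replicate 4 minus replicate 3 in batch 2 (right) stays between -0.09 and 0.06.

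Lists of ribosomal protein, immediate early and heat shock genes lay toward set B. Over all genes tested, 21% were ordered toward set B and 23.1% toward set A, and the lists are read against these shares. Of 75 ribosomal protein genes tested, 28 (37.3%) were ordered toward set B and none toward set A (median -0.46, log2); 2 (2.67%) were counted for set B, near the 2.07% of all genes. RPL8 was at 75.1, 59.9, 65.2 and 62.8 CPM in mock 1t1, mock 2t1, IR 1t2 and IR 2t2 and at 136, 137, 154 and 178 CPM in mock 1t2, mock 2t2, IR 1t1 and IR 2t1, without overlap. RPL27A, at 0.32, was farthest the other way and was not ordered. Of 33 immediate early genes, which are induced within minutes of a stimulus, 18 (54.5%) were ordered toward set B, none toward set A, and 2 were counted (RHOB, a small GTPase, and ARC; median -0.48). FOS was at 30.8, 12, 17.4 and 15.9 CPM in set A and at 39.2, 42, 27.7 and 18.5 CPM in set B; the order held within each treatment, but the sets overlapped. EGR1 (-0.02, SE 0.154) and MYC (-0.05, SE 0.0962) were level between the sets.

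Of 21 heat shock genes, 13 (61.9%) were ordered toward set B, 1 (DNAJB6) toward set A, and none was counted (median -0.44). FKBP4, an HSP90 co-chaperone, was at -0.82 (SE 0.0886) and HSPB1, a small heat shock protein, at -0.79 (SE 0.168). Nuclear genes of oxidative phosphorylation had a median of -0.28, with 22 of 51 (43.1%) ordered toward set B, 5 toward set A and ATP5ME counted at -1.01 (SE 0.159). Genes often used as references also differed. ACTB was at 352, 255, 258 and 235 CPM in mock 1t1, mock 2t1, IR 1t2 and IR 2t2 and at 440, 494, 480 and 460 CPM in mock 1t2, mock 2t2, IR 1t1 and IR 2t1, without overlap. GAPDH was at 200, 122, 159 and 137 CPM in set A and at 258, 249, 297 and 313 CPM in set B, a log2 difference of -0.86 (SE 0.14).

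**Figure D4:**
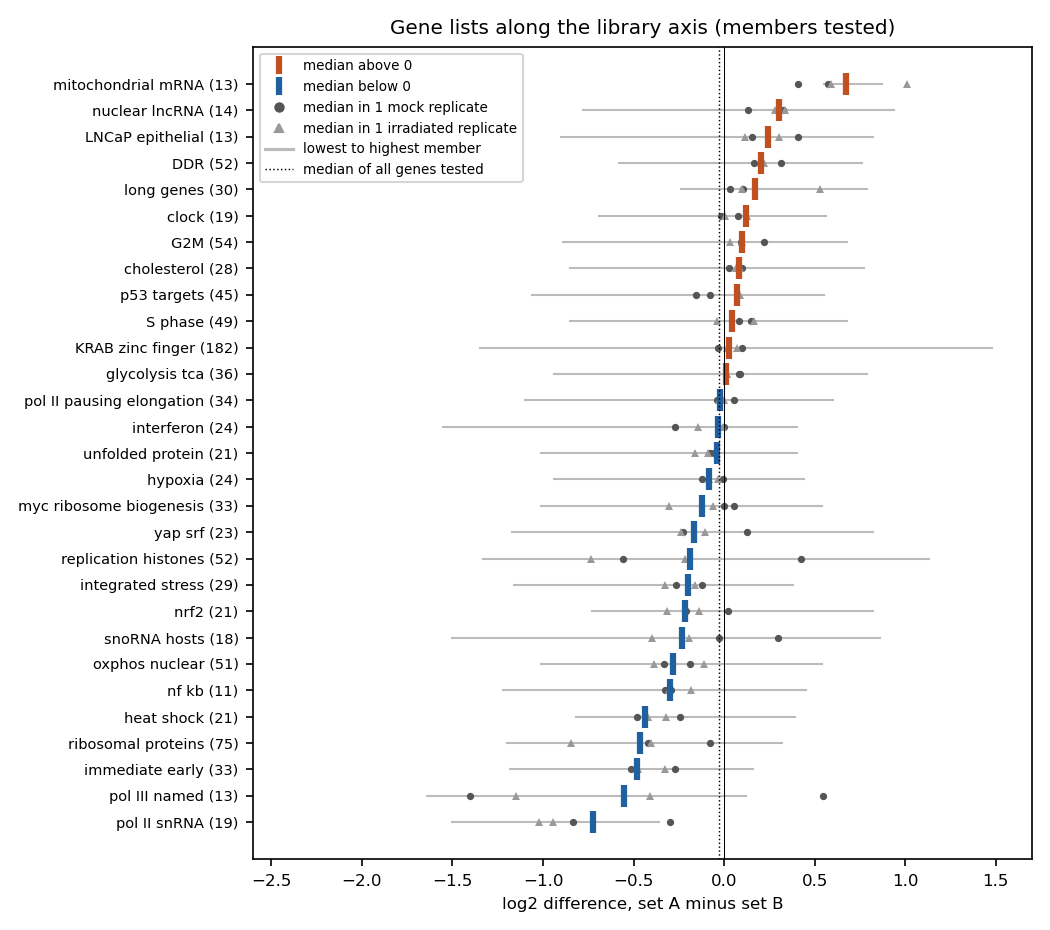
Set difference (x, log2) of gene lists with at least 10 members tested (y, number of members in brackets): coloured ticks are medians, grey lines the range of members, small symbols the medians within single replicates and the dotted line the median of all genes at -0.03. Mitochondrial mRNAs lie farthest toward set A and Pol II snRNAs farthest toward set B.

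Mitochondrial genes were the clearest group toward set A. Of 36 tested, 35 had positive differences and 23 were ordered toward set A, none toward set B (median 0.74, log2). The 4 counted were tRNA genes: MT-TE at 1.26 (SE 0.11), MT-TM at 1.16 (SE 0.151), MT-TR at 1.15 (SE 0.151) and MT-TA at 1.05 (SE 0.147). MT-TE was at 157, 142, 142 and 137 CPM in mock 1t1, mock 2t1, IR 1t2 and IR 2t2 and at 61.6, 45.5, 64.3 and 68 CPM in mock 1t2, mock 2t2, IR 1t1 and IR 2t1. Every library of set A lay above every library of set B. All 13 mitochondrial mRNA genes lay between 0.55 and 0.87, none of them counted and 12 ordered. MT-ND6, the mRNA encoded on the light strand, had the highest value at 0.87 (SE 0.179). MT-RNR2, the large ribosomal RNA, was at 8090, 11200, 11600 and 9850 CPM in set A and at 7150, 7950, 6000 and 5950 CPM in set B, without overlap. MT-RNR1 was not ordered, since mock 1t1 (1700 CPM) lay below mock 1t2 (1810 CPM). Mitochondrial genes as a whole took 4.79% ± 0.521 of counts in set A (SD, n = 4) and 3.23% ± 0.507 in set B (SD, n = 4), and 0.57% to 0.934% in batch 2.

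Of the nuclear genes among the 12 largest differences toward set A, most were lncRNAs. As a class, however, lncRNAs leaned toward set B, with a median of -0.17 (log2). Of 2565 tested, 66 (2.57%) were counted for set B and 35 (1.36%) for set A, and 676 were ordered toward set B and 346 toward set A. LINC00641 was at 108, 132, 133 and 152 CPM in mock 1t1, mock 2t1, IR 1t2 and IR 2t2 and at 60.9, 50.9, 61.7 and 63 CPM in mock 1t2, mock 2t2, IR 1t1 and IR 2t1, a log2 difference of 1.15 (SE 0.0956). ACAD9-DT, divergent to ACAD9, was at 1.18 (SE 0.136). Antisense and divergent transcripts by name nevertheless leaned the other way as a class, with 56 of 1481 (3.78%) counted for set B and 12 (0.81%) for set A, against 2.07% and 1.28% of all genes, and a median of -0.27. Of 16 nuclear lncRNAs listed, 14 were tested; 8 (57.1%) were ordered toward set A and 2 (14.3%) toward set B, against 23.1% and 21% of all genes. SCHLAP1, a prostate cancer lncRNA, was at 0.94 (SE 0.116) and NEAT1, the paraspeckle RNA, at 0.75 (SE 0.118), while PCA3 was at -0.78 (SE 0.128). The largest class counted for set A were genes without a symbol, 161 of 288 (55.9%), but the 4117 tested had a median of -0.03 and 110 were counted for set B. Counts were low for these set A genes as a whole, with a median of 19.7 per library over all 288 against 128 over all genes tested.

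DNA repair genes lay toward set A without reaching the 2-fold bound. Of 52 DNA damage response genes, 27 (51.9%) were ordered toward set A and 3 (5.77%) toward set B, against 23.1% and 21% of all genes (median 0.21). XRCC5, which encodes Ku80, was at 194, 237, 251 and 252 CPM in set A and at 127, 130, 150 and 147 CPM in set B, in the order given above, and PMS2, a mismatch repair gene, was at -0.48 (SE 0.0993). MBOAT2, an acyltransferase gene, was at 272, 285, 274 and 272 CPM in mock 1t1, mock 2t1, IR 1t2 and IR 2t2 and at 183, 142, 168 and 147 CPM in mock 1t2, mock 2t2, IR 1t1 and IR 2t1. Of the prostate genes TMPRSS2 was at 0.50 (SE 0.104) and KLK3, which encodes PSA, at 0.38 (SE 0.096). How far gene length enters these values was not tested.

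Lists that did not follow the axis included p53 targets (9 of 45 ordered toward set A and 12 toward set B, median 0.07) and the 182 KRAB zinc finger genes (37 and 30, median 0.03). With libraries scaled by total counts these medians were -0.01 and -0.06. MDM2, which p53 induces, had 0.23 (SE 0.119) and was not ordered. GADD45A, another p53 target, followed both the axis and radiation: it was at 39.7 and 32.4 CPM in the mock libraries of set A, 85 and 74.2 CPM in those of set B, 113 and 103 CPM in the irradiated libraries of set A, and 185 and 172 CPM in those of set B. Replication histone genes had a median of -0.19, with the contrast within mock replicate 1 at 0.42 and the other 3 between -0.74 and -0.22.

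The share of counts in each library was compared for the main classes. Protein-coding genes shorter than 5 kb took 5.62%, 3.92%, 4.04% and 3.59% of counts in mock 1t1, mock 2t1, IR 1t2 and IR 2t2 and 6.13%, 6.23%, 5.85% and 6.21% in mock 1t2, mock 2t2, IR 1t1 and IR 2t1. Those longer than 100 kb took 24.9%, 28.6%, 26.6% and 29.2% in set A and 21.9%, 21.2%, 22.1% and 21.1% in set B. For both measures the sets did not overlap and mock 1t1 lay nearest to set B. In batch 2 the short genes took 2.86% to 3.12% and the long genes 30.1% to 33.1%, beyond set A in both cases. Vault RNAs differed by 2.82 times (0.0211% ± 0.00489 in set B against 0.00749% ± 0.00371 in set A; SD, n = 4 each) and miRNA loci by 1.72 times. All protein-coding genes together took 75.1% ± 0.845 in set A and 74.3% ± 0.525 in set B (SD, n = 4 each), and these ranges overlapped. So did those of snoRNA genes, at 0.142% ± 0.00735 in set A and 0.168% ± 0.0238 in set B (SD, n = 4 each), although the median over the snoRNA genes tested lay toward set A.

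**Figure D5:**
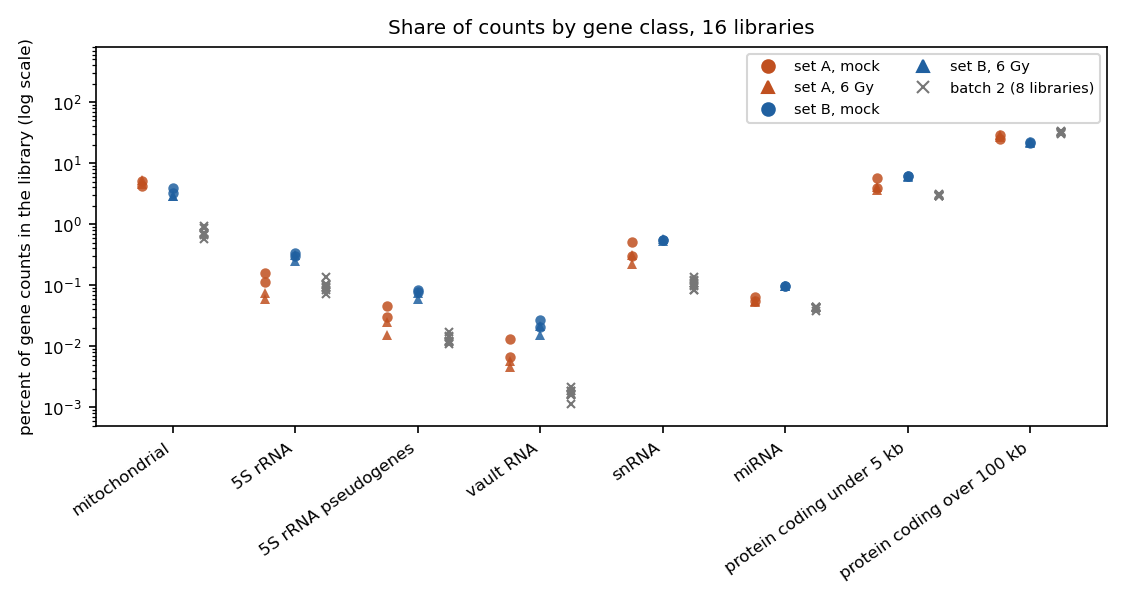
Percent of gene counts taken by 8 classes (y, log scale) in single libraries of set A, set B and batch 2. Set A is above set B for mitochondrial genes and for genes over 100 kb, and below it for the other 6 classes.

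Some genes had large fitted differences but were not ordered. In some of them single or few libraries stood far above the rest, and in others mock 1t1 broke the order. Of genes averaging 50 counts or more, 52 were at least 2-fold apart in the fit and were not ordered, and they are not counted as part of the axis. KRT39, a hair keratin, was at 738 CPM in mock 2t2 and 101 CPM in mock 1t2, and at 1.62 to 8.35 CPM in the other libraries. ST8SIA1, a ganglioside synthase, was at 667 CPM in mock 2t2 and at 7.48 to 19.4 CPM elsewhere. IRF9, part of the interferon-activated ISGF3 complex, was at 277 CPM in mock 2t2 and at 8.25 to 16.3 CPM elsewhere. TNFSF9 was at 73.3 CPM in mock 1t1 and 64.3 CPM in mock 1t2. It was at 24.9 to 30.3 CPM in the rest of set A and at 62.3 to 111 CPM in the rest of set B. LINC01962 was at 986 CPM in mock 1t1 and 912 CPM in mock 1t2. It was at 201 to 434 CPM in the rest of set A and at 969 to 1280 CPM in the rest of set B. The genes named here were chosen after their values were seen.

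Because t1 and t2 exchange sets between mock and irradiated cells, the radiation contrast depended on which libraries entered it. By construction the axis adds to the contrast in one t number and subtracts in the other. For the genes counted for set A the median log2 change after radiation was -0.99 in t1 libraries alone and 1.36 in t2 libraries alone, and for set B it was 1.03 and -1.36. With t1 and t2 summed within a replicate the medians were 0.11 and -0.11. The sums were of unscaled counts, so the weight of each set followed library depth. Mock 1t1 and 1t2 had 3438642 and 4584347 counts, and mock 2t1 and 2t2 had 5633290 and 3583636. IR 1t1 and 1t2 had 7625459 and 4993789, and IR 2t1 and 2t2 had 7488015 and 9363458. The axis therefore need not cancel in the sums, and its part in the radiation test on them was not tested. MT-TE had -1.17 in t1 libraries and 1.38 in t2 libraries, and GAPDH had 0.93 and -0.77. CDKN1A, in contrast, was at 3.88 and 3.44.

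In their main fits, the tests of radiation in batch 1 and of t1 against t2 called few of the counted genes. For radiation in batch 1, with t1 and t2 summed (2 against 2), edgeR's quasi-likelihood test at an adjusted p below 0.05 called 731 genes: 519 rose (2% of 25889) and 212 fell (0.819%). Of the genes counted for set B, 7 of 468 rose and 2 fell, and of those counted for set A none of 288 rose and 1 fell. At an unadjusted p below 0.05, 7.29% of set A and 17.3% of set B genes passed, against 11.5% of all genes. With the replicate number as a block, 2332 genes were called, 1234 higher and 1098 lower. Of the 468 set B genes 26 were higher and 56 lower, more than in the fit without the block. Of the 288 set A genes 7 were higher and 4 lower. With all 8 libraries and the set as a covariate, 769 genes were higher and 392 lower. Among them 6 set B genes were higher and 24 lower, and 5 set A genes higher and 1 lower. Without mock replicate 2 the test called 1509 genes in all, 71 set B and no set A genes among those that fell. Without mock replicate 1 it called 991, with 35 set B genes higher and 9 lower, and without IR replicate 1 it called 788, with 36 set B genes lower. For t1 against t2, with radiation and set in the model, edgeR called 9 of 23335 genes (0.0386%) and no counted gene. A t difference is the difference between the set contrasts of mock and irradiated cells, and the order required for counting keeps out genes in which it is large, so this count is not independent of the rule. At an unadjusted p below 0.05 it gave 1550 genes (6.64% of all genes). Among these were 11 set A genes (3.82%) and 96 set B genes (20.5%), so set B genes passed more often than all genes. DESeq2 called 29 genes, of which 9 were set B genes lower in t2. The number of calls ranged from 8 to 228 when single libraries were left out, the highest without mock 2t1, where 36 set B genes were lower in t2.

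In batch 2, radiation of vehicle cells raised 213 of 28651 genes (0.743%) and lowered 101 (0.353%) by edgeR. Of 453 set B genes tested there, 2 rose and none fell, and of 286 set A genes none rose and 1 fell. GPX1, a glutathione peroxidase, was at 19.6 and 22.1 CPM in vehicle replicates 3 and 4 and at 33.7 and 30.1 CPM after radiation, a log2 change of 0.60 (SE 0.111, edgeR adjusted p = 0.0159). NDUFAF8, a complex I assembly factor, rose by 1.04 (SE 0.168, edgeR adjusted p = 0.00591), and ENSG00000259732 fell by 0.72 on the log2 scale (SE 0.136, edgeR adjusted p = 0.0204). These 3 also passed for radiation in batch 1 in the same direction, at log2 changes of 0.96, 0.80 and -0.94. Without vehicle replicate 3, or without replicate 4 of vehicle with 6 Gy, the test called 162 and 161 genes and none of the counted ones. With the replicate number as a block, 1315 genes passed in batch 2; of the set B genes 6 rose and 10 fell, and of the set A genes none rose and 4 fell. Enzalutamide, averaged over radiation, gave 17 calls among 27768 genes by edgeR (0.0612%) and none among the counted genes. At an unadjusted p below 0.05, 6.67% of set A and 7.81% of set B genes passed, near the 6.29% of all genes. DESeq2 called 60 genes, 1 of them a set A gene that was lower, and with the replicate block edgeR called 272, with 2 set B genes higher and 3 set A genes lower.

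Libraries of the same treatment in batch 2 also differed from each other, and there the counted genes were not spread evenly. Between replicate 4 and replicate 3, with the 4 groups in the model, edgeR called 1169 of 28651 genes higher (4.08%) and 1089 lower (3.8%). Of the 453 set B genes tested, 55 were higher in replicate 4 (12.1%) and 7 lower (1.55%), with a median log2 difference of 0.12 against 0.01 over all genes. Of the 286 set A genes, 1 was higher (0.35%) and 11 lower (3.85%), with a median of -0.11. The share of set A genes called lower was thus near the 3.8% of all genes, and the share called higher was below the 4.08%. At an unadjusted p below 0.05, 20.6% of set A and 31.6% of set B genes passed, against 21.8% of all genes. DNAJC25, a J-domain protein gene, was at 52.9, 58, 56 and 62.2 CPM in replicate 3 of the vehicle, vehicle with 6 Gy, enzalutamide, and enzalutamide with 6 Gy groups. In replicate 4 it was at 77.6, 94.5, 97.3 and 78.3 CPM, higher in 4 of 4 groups (0.61, SE 0.0633, edgeR adjusted p = 4.03e-07). Other set B genes higher in replicate 4 were MIR3124 (0.54, SE 0.156, edgeR adjusted p = 0.0323), RNU4ATAC (0.29, SE 0.0673, adjusted p = 0.008) and PMS2P7 (0.37, SE 0.0698, adjusted p = 0.00109). RUFY4 went the other way, at -1.14 (SE 0.315, edgeR adjusted p = 0.0245). Of the set A genes, UBTFL9 (-0.45, SE 0.0721, adjusted p = 0.000206), TICAM2 (-0.35, SE 0.0796, adjusted p = 0.00674) and ACAD9-DT (-0.34, SE 0.0824, adjusted p = 0.011) were lower by edgeR.

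Members of the groups that marked the axis in batch 1 gave mixed values there. Among the 5S genes RNA5S15 alone passed (0.23, edgeR adjusted p = 0.0184). MT-TE (0.05, SE 0.115) and MIR4519 (0.09, SE 0.113) did not pass, and MT-ND6, which lay toward set A in batch 1, was higher in replicate 4 (0.27, SE 0.0827, edgeR adjusted p = 0.0424). The median difference by gene length stayed between -0.09 and 0.06 (log2), without the climb seen in batch 1. DESeq2 called 470 genes higher and 506 lower in replicate 4, among them 18 set B genes higher and 2 lower, and leaving out single libraries gave 997 to 2479 calls with 25 to 65 set B genes higher. The 4 lowest counts of set B genes, 25 to 28, came without a library of the vehicle groups: replicates 3 and 4 of vehicle and of vehicle with 6 Gy.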

How the data were processed

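The authors deposited 1 table of raw read counts per Ensembl gene for each batch, 60605 genes in each, judged to be counts from the values, which are whole numbers. The submitters' processing notes name hg38, cutadapt 1.8.1, Bowtie2 2.4.4 and SAMtools 1.9. The counting tool, annotation, use of strand and any removal of duplicate reads are not given in the sources used here. Genes without a symbol (18577) are given by identifier; class, length, promoters and mature miRNAs are RefSeq's on GRCh38.p14, matched by symbol for 18165 of 22580 genes tested.

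Counts were kept by filterByExpr, TMM-scaled and fitted with edgeR 4.0.16 (quasi-likelihood) in R 4.3.3, with Benjamini-Hochberg adjustment over all genes and a threshold of 0.05; DESeq2 1.42.0 was an alternative. Steps were tested on simulated data. The library sets, members and gene lists were chosen with earlier results of these data known. Libraries t1 and t2 of a replicate were summed for the radiation test. Nothing says that replicates came from separate cultures, so p-values measure only the spread between these samples.

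Genes named are the 12 largest counted differences in each direction with a symbol and a mean of at least 50 counts, the 3 largest per class with at least 20 genes tested, the 2 farthest members of each list in each direction, and a panel (CDKN1A, MDM2, KLK3, TMPRSS2, FOS, EGR1, MYC, HSPA1A, ACTB, GAPDH, MALAT1, NEAT1, MT-CO1, MT-RNR2, RN7SK, RMRP and RPPH1); other genes named were chosen after their values were seen. Replicate numbers in the labels were treated as pairing the groups of batch 2, since replicate differences of its groups correlated at 0.102 to 0.262 across genes in all 6 pairs of groups. The radiation and enzalutamide results given first for batch 2 leave this number out, and fits with it as a block are given beside them. In batch 1 the correlation was 0.198 with t1 and t2 summed, and -0.113 to 0.171 between libraries of single t numbers. Each batch held only 2 numbers. Some genes and lists are not reported here.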

Additional observations from a re-analysis of the deposited data

Results flagged for a closer look

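FGGY-DT, SNORD55, CPT1C, MT-TL2, KCNQ5, SNORD95, DNAI4, COL27A1 and MT-TF had set differences that differed between mock and irradiated cells by edgeR's quasi-likelihood test. The t2 minus t1 difference used in the test is the mean over both treatments, and the difference of the 2 set contrasts is this value counted double. It was 1.34 for FGGY-DT (SE 0.123, edgeR adjusted p = 0.000425), -1.44 for SNORD55 (SE 0.14, adjusted p = 0.000462), 0.92 for CPT1C, 0.97 for MT-TL2, 0.85 for KCNQ5, -1.38 for SNORD95, 0.67 for DNAI4, 1.45 for COL27A1 and 1.56 for MT-TF, on the log2 scale. FGGY-DT was at 76.4 and 79 CPM in the irradiated t2 libraries and at 11.9 to 18.1 CPM in the other 6. SNORD55, a box C/D snoRNA, was at 49.5 to 61.7 CPM in the 4 t1 libraries and 16.4 to 31.8 CPM in the 4 t2 libraries, in mock and irradiated cells alike. CPT1C, a carnitine palmitoyltransferase of the brain, was at 148 and 179 CPM in the mock t2 libraries and at 40.7 to 78.3 CPM elsewhere.

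Single libraries stood far from the rest of their treatment in 4 of 136 groups of 4 examined. The limit used flags about 1 in 20 groups of values from a single normal distribution. Each group here held libraries of both sets, and many genes were picked for differing between the sets. The 4 groups therefore cannot be read against that rate. CDH17 was highest in mock 2t1 among mock libraries (86.4 CPM) and in IR 1t2 among irradiated ones (246 CPM). The snoRNA share was highest in IR 1t1 (0.171% of counts) and the protein-coding share in IR 2t2 (76.2%) among irradiated libraries.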

How the results depend on the processing

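Without the filter on low counts, 738 genes were counted for set A and 1013 for set B, and at 1.5-fold 1962 and 2194; scaling by total counts gave 180 for set A. Leaving out single libraries gave 284 to 540 for set A and 443 to 758 for set B. The t1 against t2 test called 375 genes without the filter, 29 by DESeq2 and 8 to 228 with single libraries left out. Radiation in batch 1 called 1157 genes without the filter, 3995 in t1 and 9800 in t2 libraries alone (contrasts of the sets themselves, which test nothing independent of their choice), 1161 over 8 libraries with the set as a covariate, and 587 to 1509 with single replicates left out. Radiation in batch 2 called 624 without the filter and 161 to 511 with single libraries left out; enzalutamide called 230, 60 by DESeq2, and 7 to 27. Replicate 4 against replicate 3 called 976 genes by DESeq2 and 997 to 2479 with single libraries left out.

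With the replicate number as a block, t1 against t2 called 14 genes, radiation in batch 1 2332, radiation in batch 2 1315 and enzalutamide 272. In batch 1, with only 2 numbers, the block was not taken as a pairing, and the set counts with it were 282 and 460. No paired fit exists for replicate 4 against replicate 3, where the number is the contrast. No counted gene followed across the settings changed the sign of its set difference. For radiation in batch 1, some called genes reversed between t1 and t2 libraries alone. RPL12P19, called higher at 1.69 (log2) with t1 and t2 summed, was at 3.14 in t1 and -1.63 in t2 libraries. Signs of called genes were not compared across the other settings. Of the medians of lists, classes and length bins, 8 changed sign in at least 1 setting, all of them within 0.084 of 0 on the log2 scale as reported. The cause of these shifts was not tested, except that fewer genes or libraries enter some settings by construction. Batch 1 had 3438642 to 9363458 counts per library, which limits genes of low count, and set A genes had a median of 19.7 counts.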
